A study of Bos taurus with 8 samples.

Results

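The miR-2284 and miR-2285 miRNAs form a large group of related bovine miRNAs, and 48 of the 704 miRNA names measured in cow blood belong to it. They were taken by name, as every bovine name that starts with miR-2284 (25 names) or miR-2285 (23 names), and they make up 8.5% of the 565 bovine names. The other 139 names are human homologues. Blood plasma and blood cells of 4 non-pregnant Holstein-Friesian cross cows (numbered 44 to 47) were sequenced, 1 library per fraction from every animal. The study names no treatment, and the animals it sampled were 20 to 25 months old. Plasma was spun again and passed through a filter to remove cell debris, and RNA came from 0.7 mL of it. The blood cells are a pellet of red blood cells and buffy coat, and RNA came from 250 μL of their suspension. The same volume of 5 μL of RNA extract went into every library, and reads were 36 bases long.

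miRNAs are short RNAs that load into Argonaute proteins and lower the output of mRNAs they pair with, mainly through bases near their 5′ end. The miR-2284 and miR-2285 names were registered in cattle, where gene copies of the group lie scattered over many chromosomes. No role is given here for single members, so they are ordered here by abundance and by how they differed between the fractions, with the gene around each one as the annotation gives it. Mature sequences were not used here.

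The members were spread over the genome. The deposited table gives 1 location per name in the build bosTau4, and these lay on 22 chromosomes, with 3 members on unplaced sequence, 6 on chromosome 1 and 5 on chromosome 5. Some lay close together. miR-2284y (chromosome 1, 3474027 to 3474047, minus strand), miR-2284i and miR-2284a stood within 133045 bases of each other. miR-2285o (chromosome 5, 124162587 to 124162606, minus strand) and miR-2284h-5p (chromosome 5, 124162586 to 124162606, plus strand) lay on top of each other on opposite strands. A read of either carries the strand it came from in this kind of library, and miR-2285o had 223 reads over the 8 libraries against 2 for miR-2284h-5p. However, miR-2285o matched 5 genes in the RefSeq table used below, so its 223 reads cannot be placed at this locus.

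Several names stand for more than 1 gene. In the RefSeq gene table of the newer assembly ARS-UCD2.0, 47 of the 48 members matched at least 1 miRNA gene, and 85 genes matched in all. The 11 members with several genes include miR-2284y and miR-2284z with 7 each and miR-2285k with 5, which were the most abundant members in plasma, but also miR-2285n with 7 and miR-2285m with 5, which had few reads. Across the 47 matched members, Spearman's rho between the number of genes and total reads was 0.43, as a description over members that share the same libraries. Of the 85 genes, 60 (70.6%) lay within the bounds of another gene, against 626 of 841 (74.4%) bovine miRNA genes outside the family, so this feature did not set the measured members apart. By name the table holds 191 genes of the family, measured here or not, and 128 of them lay within another gene. The table gives no strand. Genes were matched by name only. Counts are per name, so reads of a name with several genes cannot be assigned to a locus here. In mapping, 1 mismatch was allowed, so a member's count may include reads of a relative.

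Depth differed between the fractions. The plasma libraries held 1453384 to 4296460 miRNA reads and the blood cell libraries 11169204 to 14471979, and plasma had the lower total in every one of the 4 cows (exact paired permutation test on log10 totals, two-sided, p = 0.13, the smallest p that 4 pairs allow). miR-486 and miR-451, which are abundant in red blood cells, took 8.86% to 18% of the reads in plasma and 47.9% to 55.0% in blood cells. Levels are given in RPMM, the scale of the authors, in which a read count is taken per fixed number of mapped miRNA reads of its library. The 3 red blood cell markers summed to 89165 to 180387 RPMM in plasma, against 488193 to 561169 in blood cells, and the 5 leukocyte markers to 31864 to 68204 RPMM in plasma, against 25061 to 30989 in blood cells, so markers of both cell kinds were present in the pellet. The 4 markers of liver and epithelium summed to 2049 to 2700 RPMM in plasma, against 0.258 to 0.447 in blood cells, where miR-429 was at 0. The 3 names on the platelet list are miR-126-3p, miR-126-5p and miR-223, of which miR-223 is also on the leukocyte list. They summed to 7148 to 13592 RPMM in plasma, against 633 to 1813 in blood cells. Whether platelets gave these reads was not tested, nor was the part of any of these cell types in the family's values. In such bulk samples, fewer cells of a type and less RNA per cell cannot be told apart.

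Taken as a whole, the family was a small part of the miRNA reads, and a larger part in plasma than in blood cells. It held 4718 reads in the plasma of cow 44, 9935 in cow 45, 6089 in cow 46 and 10652 in cow 47, against 13194, 17255, 13320 and 14206 reads in the blood cells of cows 44, 45, 46 and 47. As a share of bovine miRNA reads this was 0.325% (95% Wilson interval 0.316% to 0.335%), 0.313% (0.306% to 0.319%), 0.335% (0.327% to 0.344%) and 0.248% (0.244% to 0.253%) in plasma. In blood cells of the same cows it was 0.118% (0.116% to 0.12%), 0.119% (0.117% to 0.121%), 0.111% (0.109% to 0.113%) and 0.122% (0.12% to 0.1245%). The intervals cover counting error only, since PCR copies are not independent molecules. All 4 plasma shares lay above all 4 blood cell shares, and the plasma of cow 47 was the lowest of the plasma libraries. Such a pattern was common, since 64.1% of the 209 names tested below lay above in plasma in this way by RPMM.

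With each read at the RPMM that 1 bovine read has in the deposited table for its library, the pooled family stood at 3047 ± 394 in plasma, against 1176 ± 48.1 in blood cells (SD, n = 4 each). The ratio of these means was 2.59, and within a cow the ratio was 2.02 (cow 47) to 3.02 (cow 46), higher in plasma in 4 of 4 cows. With library totals, the median log2 fold change of the 209 names tested below was 1.76, a larger fold than the family's 2.59. With miR-486 and miR-451 left out of the total, the family stood at 3556 ± 399 in plasma, against 2422 ± 213 in blood cells on the scale so changed (SD, n = 4 each), a ratio of 1.47. The 25 miR-2284 names, with 2689 ± 347 RPMM in plasma against 922 ± 63.6 in blood cells, had a ratio of 2.92, and the 23 miR-2285 names, with 358 ± 64.1 RPMM in plasma against 254 ± 17.4 in blood cells, had a ratio of 1.41 (SD, n = 4 each). A sum over members was not tested, because members differed in direction.

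More members were detected in blood cell libraries than in plasma libraries. With over 10 reads counted as detected, 13, 17, 14 and 17 members were detected in the plasma of cows 44, 45, 46 and 47, and 19, 21, 20 and 18 in their blood cells. Over all 704 names, 275, 315, 283 and 307 were detected in plasma of these cows, and 295, 305, 296 and 281 in blood cells. Thinned to 1453384 reads, the smallest total, each plasma library held an expected 9.37 to 13.1 detected members (mean 11.8), against 10.0 to 10.1 (mean 10.0) in blood cell libraries, so the higher number in blood cells was not seen at equal depth. Over all names, the same thinning gave an expected 254 to 275 detected in plasma libraries, against 181 to 189 in blood cell libraries. In all 8 libraries 12 members were detected, and 23 were detected in none. Only miR-2284p was detected in all 4 blood cell libraries and in no plasma library, and no member showed the reverse. These patterns were not counted over all 704 names. A member at 0 reads can still be present below about 3 reads, a floor of 0.696 to 2.07 RPMM for plasma libraries and of 0.207 to 0.268 for blood cell libraries.

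**Figure D1:**
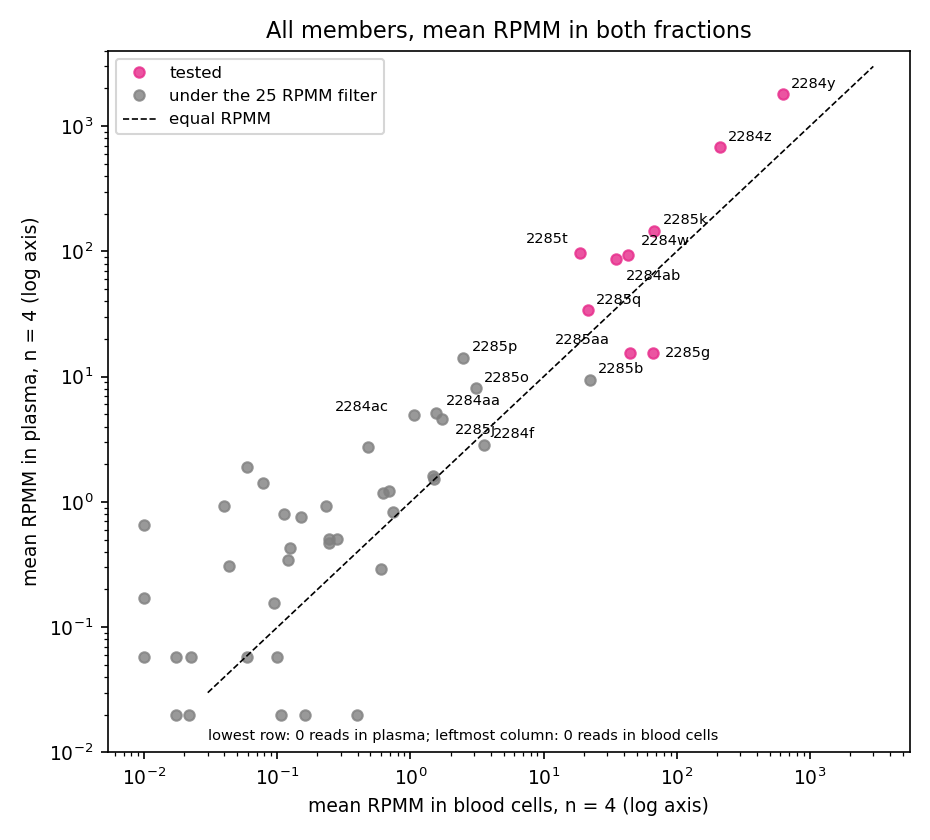
Mean RPMM of all 48 members in plasma (vertical, log axis) against blood cells (horizontal, log axis), n = 4 libraries each; pink points are the 9 members that passed the RPMM filter and were tested, grey points the other 39, and the dashed line marks equal RPMM. miR-2284y stands at the top right with 1806 and 624 RPMM in plasma and blood cells, and miR-2285g, miR-2285aa and miR-2285b are the abundant members below the line.

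Names with 25 RPMM or more in 3 or 4 plasma libraries, or in 3 or 4 blood cell libraries, entered the main test. This held for 9 of 48 members (18.8%), against 196 of the other 517 bovine names (37.9%). The 9 members held 97.8% of the family's reads in plasma and 96.2% in blood cells. The quasi-likelihood test of edgeR was run on the counts of all 209 such names, with the cow as a block, and p-values were adjusted by the Benjamini-Hochberg method over all of them. Library sizes were scaled by TMM (trimmed mean of M-values), which sets the typical miRNA near equal, and plasma over blood cells then had a median log2 fold change of 0.08 among all tested names. With library totals alone this median was 1.76. The choice of scaling moved the median by 1.67 on the log2 scale, so members with a fold change are given on both. The words higher and lower follow TMM unless RPMM or totals are named.

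By TMM, 1 of the 9 tested members was called higher in plasma and 5 were called lower in plasma, while 3 were not called. Over all 209 tested names, 85.2% were called, 45.5% higher in plasma and 39.7% lower, so a call as such is common here. The median log2 fold change of the 9 was -0.56, against 0.08 over all tested names. By library totals, 7 members were above and 2 below in plasma with a call, against 91.9% of all tested names called, 67.0% higher and 24.9% lower, and their median was 1.11 against 1.76. In RPMM, plasma lay above blood cells in every library for 7 members and below for 2, against 64.1% above and 23.0% below, 87.1% in all, among the tested names. miR-2285q and miR-2285t passed the filter through plasma alone, and miR-2285aa and miR-2285g through blood cells alone, which favours a difference in that direction. The other 5 passed it in both fractions.

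**Figure D2:**
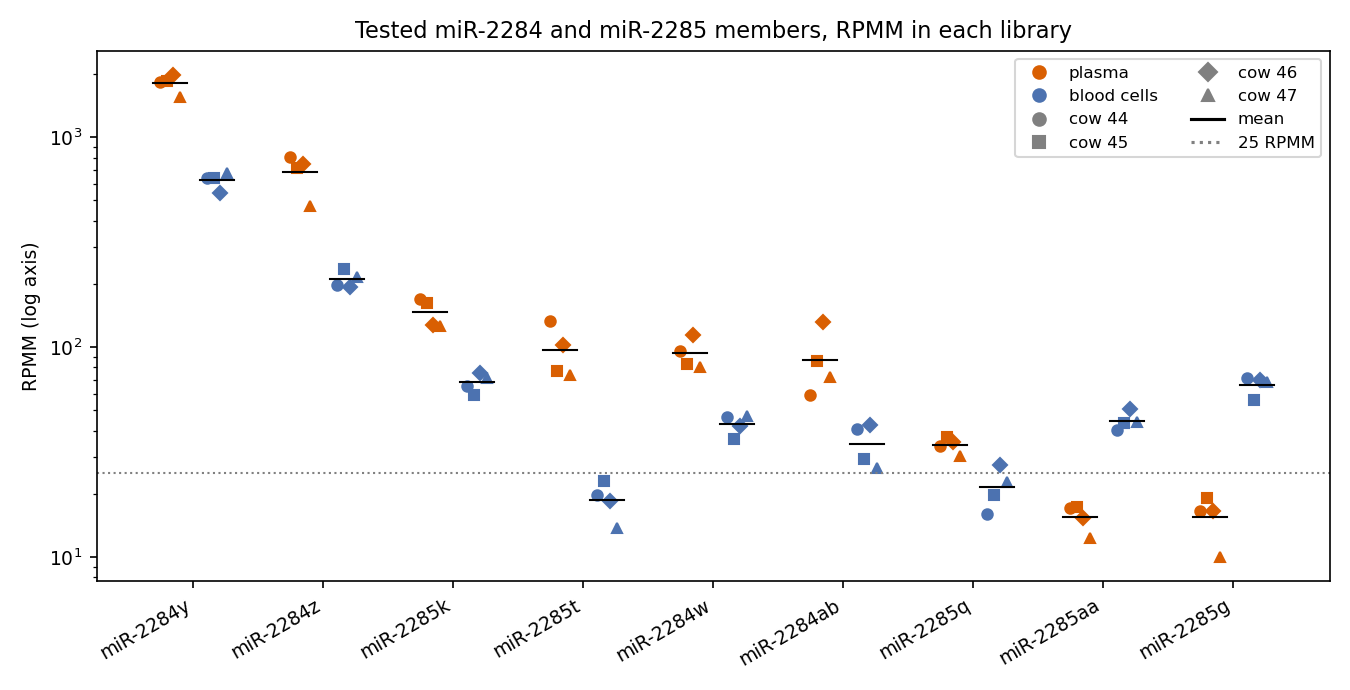
RPMM (log axis) of the 9 tested members in each library, plasma in orange left of blood cells in blue, with a symbol per cow, a line at each mean (n = 4) and a dotted line at 25 RPMM. For 7 members all plasma points lie above all blood cell points, and for miR-2285aa and miR-2285g all lie below.

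miR-2284y was the most abundant member in every library and carried most of the family's reads. It had 1830, 1855, 1984 and 1554 RPMM in the plasma of cows 44, 45, 46 and 47, against 640, 640, 541 and 676 RPMM in their blood cells. The fractions did not overlap in RPMM, and the spread was narrow in both, with coefficients of variation of 10.0% in plasma and 9.28% in blood cells. By mean RPMM it ranked 52 among the 565 bovine names in plasma and 59 in blood cells, so its place was much the same in both. Its log2 fold change was -0.14 with TMM (standard error 0.13, adjusted p = 0.348 by edgeR, lower in 3 of 4 cows) and 1.53 with library totals (standard error 0.17, adjusted p = 0.000197 by edgeR). Of its 7 RefSeq genes, 4 lie within other genes, among them RBBP8, which encodes a DNA repair protein, and PAX3, which encodes a developmental transcription factor.

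miR-2284z came next. It had 806, 712, 744 and 469 RPMM in the plasma of cows 44, 45, 46 and 47, against 197, 236, 193 and 216 RPMM in their blood cells. The fractions did not overlap, and cow 47 was the lowest of the plasma libraries. The member ranked 85 in plasma and 81 in blood cells among the bovine names. Its log2 fold change was -0.00043 with TMM (standard error 0.17, adjusted p = 0.998 by edgeR, higher in 2 of 4 cows), and 0.16 without cow 47 (adjusted p = 0.532 by edgeR), while library totals gave 1.67 (standard error 0.22, adjusted p = 0.000451 by edgeR). A missed call does not show that the levels were equal.

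A further group of members had between about 34 and 147 RPMM in plasma and less in blood cells. miR-2285k, with 5 RefSeq genes, had 169, 163, 128 and 127 RPMM in the plasma of cows 44, 45, 46 and 47, against 65.4, 59.1, 75.6 and 71.6 RPMM in their blood cells. The fractions did not overlap in RPMM. By TMM it was lower in plasma at -0.57 (standard error 0.20, adjusted p = 0.0365 by edgeR, lower in 4 of 4 cows), and with library totals higher at 1.10 (adjusted p = 0.00179 by edgeR). The TMM call was lost without cow 44 (-0.64, adjusted p = 0.0597 by edgeR), without cow 46 (-0.39, 0.108) and without cow 47 (-0.50, 0.135). miR-2284w, on unplaced sequence in bosTau4 and within DOCK11 in RefSeq, had 96.4, 82.9, 114 and 80.1 RPMM in plasma of the 4 cows, against 46.6, 36.4, 42.1 and 46.9 RPMM in blood cells. DOCK11 encodes an activator of the small GTPase CDC42. By TMM miR-2284w was lower in plasma at -0.56 (standard error 0.16, adjusted p = 0.0149 by edgeR, lower in 4 of 4 cows), and with library totals higher at 1.11 (adjusted p = 0.00113 by edgeR). That TMM call was lost without cow 44 (-0.52, adjusted p = 0.0564 by edgeR) and without cow 47 (-0.47, 0.0882).

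miR-2284ab (chromosome 6, 106089738 to 106089758, plus strand) lies within AFF1 in RefSeq, a gene for a transcription elongation factor. It had 59.2, 85.8, 132 and 72.4 RPMM in the plasma of cows 44, 45, 46 and 47, against 40.5, 29.3, 42.5 and 26.5 RPMM in their blood cells. It varied most between cows in plasma among the tested members, with a coefficient of variation of 36.2%, and the fractions still did not overlap. Its log2 fold change was -0.37 with TMM (standard error 0.24, adjusted p = 0.202 by edgeR, lower in 4 of 4 cows) and 1.31 with library totals (adjusted p = 0.00196 by edgeR). miR-2285q (chromosome 20, 14205882 to 14205904, minus strand), within SREK1, a gene for a splicing regulator, had 33.7, 37.4, 35.2 and 30.4 RPMM in plasma of the same cows, against 16.1, 19.7, 27.3 and 22.7 RPMM in blood cells. Its plasma values were the steadiest of the tested members, with a coefficient of variation of 8.57%. By TMM it was lower in plasma at -0.98 (standard error 0.21, adjusted p = 0.00431 by edgeR, lower in 4 of 4 cows), and it turned to 0.69 with library totals (adjusted p = 0.0187 by edgeR).

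miR-2285t was the tested member with the largest ratio of plasma to blood cells. It lies on chromosome 3 (8649929 to 8649950, minus strand) and within FCGR2B in RefSeq, which encodes an inhibitory receptor for IgG on B cells and myeloid cells. It had 193, 245, 186 and 318 reads in the plasma of cows 44, 45, 46 and 47, and 221, 332, 223 and 160 reads in their much deeper blood cell libraries. In RPMM this was 133, 77.0, 102 and 73.8 in plasma, against 19.8, 22.9, 18.6 and 13.8 in blood cells, so that every plasma value was over every blood cell value. The ratio of mean RPMM was 5.14, and 3.36 (cow 45) to 6.72 (cow 44) within a cow. It was the only tested member called higher in plasma by TMM, at 0.67 (standard error 0.21, adjusted p = 0.0245 by edgeR, higher in 4 of 4 cows). This call was lost without cow 44 (0.56, adjusted p = 0.0898 by edgeR), without cow 46 (0.69, 0.0671) and without cow 47 (0.62, 0.0644). With library totals the log2 fold change was 2.34 (standard error 0.22, adjusted p = 8.85e-05 by edgeR). Even so, it stood near the middle of all tested names, at percentile 56.2 of the TMM fold changes.

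miR-2285g and miR-2285aa went the other way and were lower in plasma under both scalings. miR-2285g (chromosome 17, 47824426 to 47824446, minus strand), with 3 RefSeq genes, within NLRC5, AQR and TENM1, had 24, 61, 30 and 43 reads in the plasma of cows 44, 45, 46 and 47, against 795, 813, 835 and 788 reads in their blood cells. In RPMM it had 16.5, 19.2, 16.5 and 9.98 in plasma, against 71.1, 56.1, 69.6 and 67.9 in blood cells, with no overlap. NLRC5 encodes an activator of MHC class I genes, AQR an RNA helicase of the spliceosome. The log2 fold change was -3.79 with TMM (standard error 0.24, adjusted p = 1.28e-05 by edgeR, lower in 4 of 4 cows) and -2.12 with library totals (standard error 0.25, adjusted p = 0.000247 by edgeR). It was at percentile 9.33 of the TMM fold changes of all tested names.

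miR-2285aa (chromosome 2, 5346304 to 5346326, plus strand) lies within ERCC3 in RefSeq, a gene for a DNA helicase of transcription and repair. It had 25, 55, 28 and 53 reads in the plasma of cows 44, 45, 46 and 47, against 449, 627, 612 and 512 reads in their blood cells. Its RPMM of 17.2, 17.3, 15.4 and 12.3 in plasma stood below all blood cell values of 40.2, 43.3, 51.0 and 44.1. The log2 fold change was -3.20 with TMM (standard error 0.20, adjusted p = 1.23e-05 by edgeR, lower in 4 of 4 cows) and -1.53 with library totals (standard error 0.20, adjusted p = 0.000448 by edgeR). Leaving out any cow kept both members lower in plasma, between -4.00 and -3.59 for miR-2285g and between -3.28 and -3.08 for miR-2285aa.

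**Figure D3:**
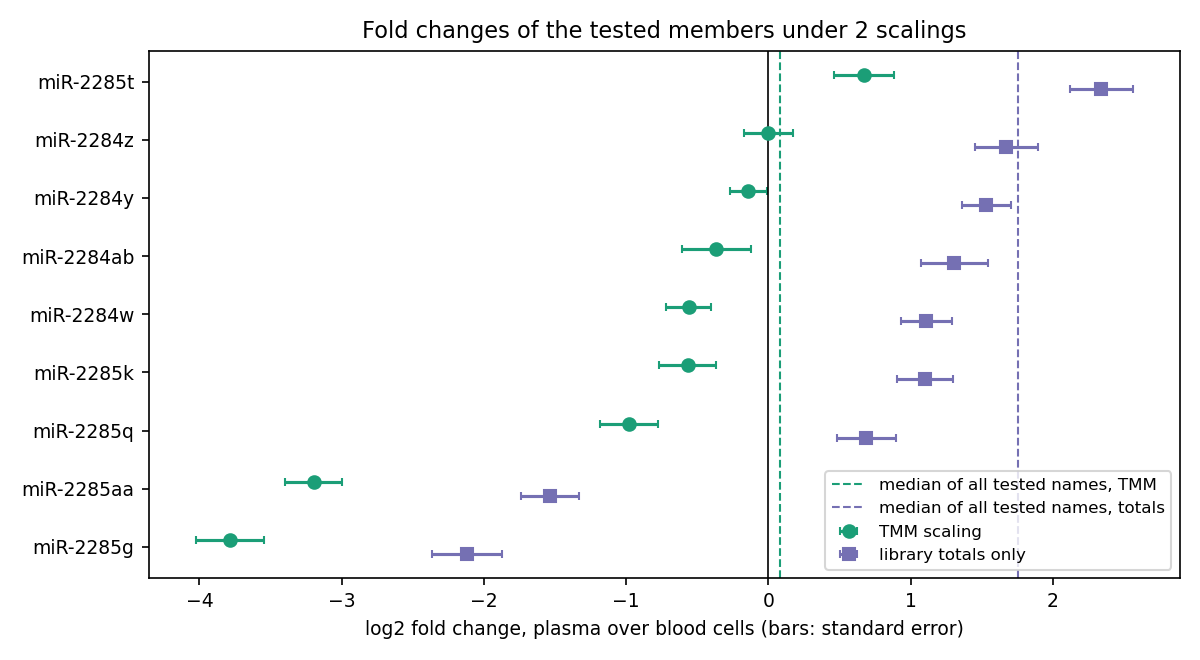
Plasma over blood cells as log2 fold change (horizontal) for the 9 tested members, with TMM (green circles) and with library totals only (violet squares), bars showing the standard error; dashed lines mark the medians of all 209 tested names, 0.08 and 1.76. miR-2285g and miR-2285aa lie left of 0 under both scalings, miR-2285t right of 0 under both, and the other 6 change side.

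Comparison of members with each other within a library needs no scaling between libraries. miR-2284y made up 56.4%, 59.4%, 59.3% and 62.9% of family reads in the plasma of cows 44, 45, 46 and 47, against 54.2%, 53.7%, 48.8% and 55.2% in their blood cells, so every plasma share was above every blood cell share. miR-2284z made up 22.2% ± 2.42 in plasma, against 17.9% ± 1.36 in blood cells (SD, n = 4 each), with overlap. miR-2285t held 3.15% ± 0.680 of family reads in plasma, against 1.60% ± 0.337 in blood cells (SD, n = 4 each), with no overlap. miR-2285g held 0.505% ± 0.0862 in plasma, against 5.64% ± 0.687 in blood cells, and miR-2285aa 0.510% ± 0.0407 in plasma, against 3.81% ± 0.534 in blood cells (SD, n = 4 each). miR-2285q held 1.13% ± 0.0986 in plasma, against 1.83% ± 0.464 in blood cells, again without overlap (SD, n = 4 each). Shares of the same total depend on each other, so the lower shares of miR-2285g and miR-2285aa in plasma raise those of other members. How far this moved the share of miR-2284y was not tested. For miR-2284y, miR-2284z, miR-2285t, miR-2284w, miR-2285q, miR-2285aa and miR-2285g the share moved the same way in 4 of 4 cows (exact paired permutation test, p = 0.13 each, the smallest that 4 pairs allow). Shares of miR-2285k and miR-2284ab overlapped between the fractions (exact paired permutation p = 0.25 and 1).

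The order of members changed as a result. In plasma, miR-2285t had 8.04, 4.02, 6.2 and 7.40 reads for each read of miR-2285g in cows 44, 45, 46 and 47, against 0.278, 0.408, 0.267 and 0.203 in blood cells. For miR-2285k the number of reads per miR-2285g read was 9.79 ± 2.20 in plasma, against 1.03 ± 0.0744 in blood cells (SD, n = 4 each). By contrast, miR-2284y and miR-2284z stayed in much the same proportion, at 2.71 ± 0.436 miR-2284y reads per miR-2284z read in plasma against 2.97 ± 0.259 in blood cells (SD, n = 4 each), and the fractions overlapped. These pairs were chosen after the values were seen. When the family's own read total was used as the library size, an alternative added once values were known, miR-2285t was called higher in plasma at 0.98 (adjusted p = 0.00746 by edgeR), and miR-2285q, miR-2285aa and miR-2285g lower at -0.67, -2.89 and -3.48 (adjusted p = 0.0225, 2.68e-05 and 2.20e-05 by edgeR), each in 4 of 4 cows. Under that scaling 84.2% of all tested names were called, 48.3% higher in plasma and 35.9% lower. miR-2284y and miR-2284z were at 0.17 and 0.31 and were not called (adjusted p = 0.241 and 0.101 by edgeR). Together they make up most of that total, with mean shares of 59.5% and 22.2% in plasma and 53.0% and 17.9% in blood cells. This scaling therefore holds both near 0 by construction, and their missing calls under it cannot show equal levels.

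**Figure D4:**
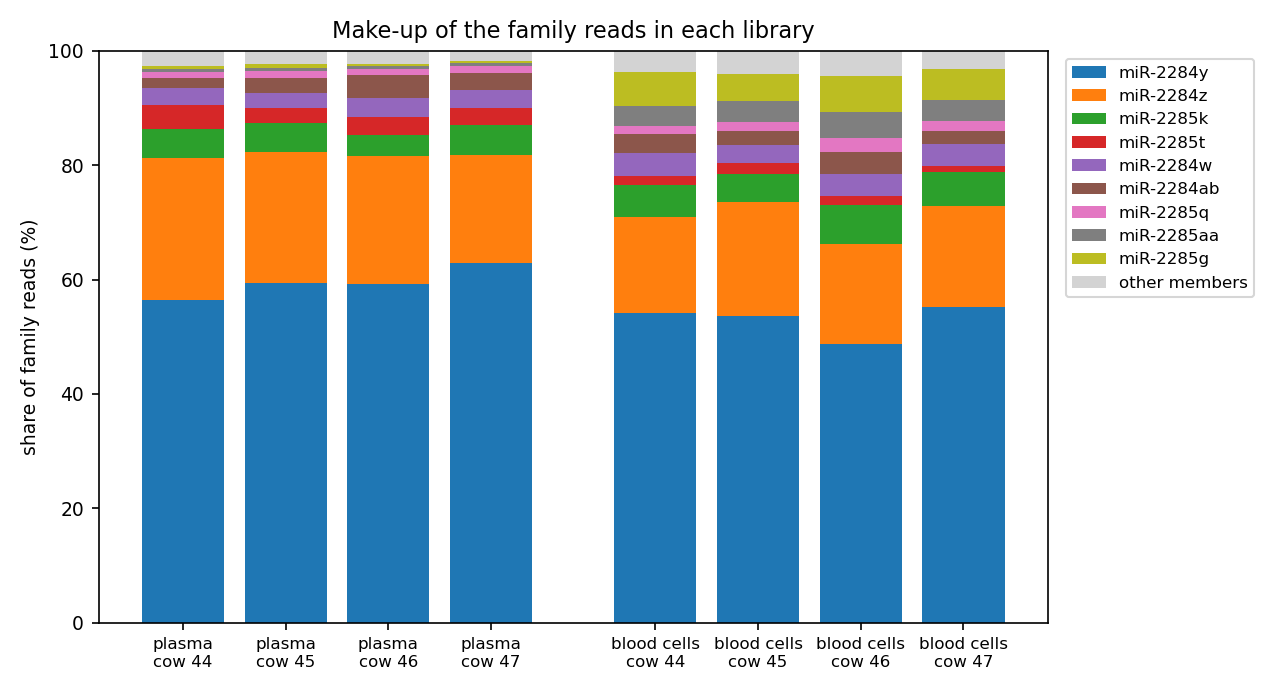
Share of the family's reads (%) taken by each of the 9 tested members in each library, with the other 39 members in grey; plasma libraries are on the left and blood cell libraries on the right, by cow. miR-2284y takes the largest share everywhere, and miR-2285g and miR-2285aa, near 0.5% each in plasma, are wider bands in blood cells at 5.64% and 3.81%.

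The other 39 members did not pass the RPMM filter and were left out of the main test. Together they held 69.3 ± 18.2 RPMM in plasma, against 44.7 ± 5.03 in blood cells (SD, n = 4 each). Of them, 7 had at least 100 reads over the 8 libraries, and the remaining 32 had 1 to 94, with a median of 14. For those named here, fold changes come from a fit of all 704 names without the filter, in which 47.0% were called, 25.3% higher in plasma and 21.7% lower. That fit called 2 of the 48 members higher in plasma, miR-2285t and miR-2285r, and 8 lower, miR-2285g, miR-2285aa, miR-2285q, miR-2285b, miR-2284f, miR-2284p, miR-2285a and miR-2284c. For the alternatives of that fit, library totals among them, the share called over all 704 names was not counted. Among the 209 names that passed the filter, library totals called 67.0% higher in plasma and 24.9% lower.

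miR-2285b resembled miR-2285g and miR-2285aa. It lies on chromosome 1 (128548380 to 128548401, minus strand) and missed the filter because only 1 blood cell library, that of cow 45, had at least 25 RPMM. It had 20, 29, 18 and 22 reads in the plasma of cows 44, 45, 46 and 47, against 221, 392, 279 and 223 reads in their blood cells. In RPMM this was 13.8, 9.11, 9.89 and 5.11 in plasma, against 19.8, 27.1, 23.2 and 19.2 in blood cells, with no overlap. Its log2 fold change without the filter was -2.90 with TMM (standard error 0.26, adjusted p = 2.04e-07 by edgeR) and -1.32 with library totals (adjusted p = 0.000933 by edgeR), lower in plasma in 4 of 4 cows by RPMM.

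miR-2285p and miR-2284ac leaned towards plasma in RPMM. miR-2285p, within MPP7 in RefSeq, had 30, 51, 30 and 16 reads in the plasma of cows 44, 45, 46 and 47, against 41, 40, 24 and 18 reads in their blood cells. This gave 20.7, 16.0, 16.5 and 3.71 RPMM in plasma, all above the 3.67, 2.76, 2.0 and 1.55 RPMM of the blood cell libraries. Pooled over cows, the ratio was 4.73 (95% exact binomial interval 3.66 to 6.11, counting error only). By TMM it was at 0.76 and was not called (adjusted p = 0.0542 by edgeR), while without cow 47, the lowest plasma value, it was called at 0.82 (0.0460), and with library totals at 2.38 (1.96e-05). miR-2284ac, within MTUS1, had 2, 14, 13 and 29 reads in plasma of the 4 cows, against 3, 16, 20 and 14 reads in blood cells, a pooled ratio of 5.01 (3.39 to 7.41). Its TMM value of 0.70 was not called (adjusted p = 0.193 by edgeR), and library totals gave 2.20 with a call (0.000253).

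miR-2285o, miR-2285j and miR-2284aa had pooled RPMM ratios of 2.27 (95% exact binomial interval 1.70 to 3.03), 2.24 (1.5 to 3.28) and 2.76 (1.88 to 4.01), from 15 to 25, 7 to 14 and 9 to 14 reads per plasma library and 28 to 43, 16 to 25 and 15 to 31 per blood cell library. None of the 3 was called by TMM (-0.28, -0.30 and 0.02, adjusted p = 0.506, 0.532 and 0.962 by edgeR), and with library totals all 3 were called as higher in plasma (1.31, 1.29 and 1.60, adjusted p = 0.008, 0.0157 and 0.00505 by edgeR). Most names that passed the filter were also called higher in plasma with library totals (67.0% of 209). miR-2284f, within SLC24A4, had 7, 14, 2 and 5 reads in the plasma of cows 44, 45, 46 and 47, against 44, 51, 53 and 28 reads in their blood cells. Its RPMM overlapped between the fractions. It was lower in plasma by TMM at -1.98 (standard error 0.41, adjusted p = 0.000853 by edgeR), and with library totals the value was -0.41 and was not called (adjusted p = 0.471 by edgeR).

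miR-2284p, within PRKCA, the gene of a protein kinase C, had 0, 8, 4 and 6 reads in the plasma of cows 44, 45, 46 and 47, against 15, 24, 18 and 18 reads in their blood cells. In RPMM the fractions overlapped, with 0 to 2.51 in plasma, against 1.34 to 1.66 in blood cells. Its TMM value of -1.45 was called (adjusted p = 0.0335 by edgeR) but not without cow 44 (-1.12, 0.0943) or cow 47 (-1.66, 0.0687), and library totals gave 0.05 (0.936). Its mean RPMM was 1.53 in plasma and 1.51 in blood cells, and the plasma libraries were the shallower ones.

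3 members with very few reads were called in the unfiltered fit and are named after their values were seen. miR-2285r had 4, 2, 3 and 11 reads in the plasma of cows 44, 45, 46 and 47, against 0, 1, 2 and 0 in their blood cells. Pooled over cows, its RPMM ratio was 30.5 (95% exact binomial interval 9.05 to 160). Its call (3.10, adjusted p = 0.0143 by edgeR) was lost without cow 44 (0.0648) and without cow 47 (0.165), and library totals gave 4.56 (0.000495). miR-2284c had 0 reads in plasma and 3, 2, 13 and 1 reads in blood cells, so that its pooled RPMM was at least 1.38-fold lower in plasma, with 3 reads over the 4 plasma libraries as the floor and its 19 blood cell reads taken as exact. The 95% exact binomial interval of its pooled ratio, from 0 reads against 19, reached up to 0.981. Its TMM call (adjusted p = 0.0338 by edgeR) was lost without cow 44 (0.0729), cow 46 (0.299) or cow 47 (0.0562), with library totals (0.172) and by DESeq2 (0.157). The fitted fold change of a member at 0 depends on the prior count and is not given. miR-2285a, within RUNX1, a gene for a transcription factor of blood formation, had 0, 3, 0 and 1 reads in plasma and 8, 11, 6 and 5 in blood cells. Its call (-2.17, adjusted p = 0.0437 by edgeR) was lost when any of the 4 cows was left out (0.0589 to 0.141), with library totals (-0.70, 0.552) and by DESeq2 (-2.60, 0.06).

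8 members had reads in 1 fraction only. miR-2284b, miR-2284c, miR-2284o, miR-2284v and miR-2285ae had 0 reads in plasma and 1 to 19 in blood cells. miR-2284g, miR-2284q and miR-2284t-5p had 0 reads in blood cells and 1, 1 and 6 in plasma. For miR-2284t-5p, within SPON1 in RefSeq, plasma was at least 9.16-fold higher in pooled RPMM, with 3 reads over the 4 blood cell libraries as the floor and its 6 plasma reads taken as exact, from 2 reads in cow 44 and 4 in cow 45. With the counting error of those 6 reads included, the 95% exact binomial interval of the ratio started at 5.39. In the unfiltered fit miR-2284t-5p was not called by TMM (adjusted p = 0.0809 by edgeR) or by DESeq2 (0.651). With library totals it was called higher in plasma (adjusted p = 0.0167 by edgeR).

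The family was also set beside its neighbours in numbering, the bovine names miR-2286 to miR-2489. Of these 124 names, 5 were tested, against 9 of 48 members. By TMM, 1 of the 5 was called higher in plasma and 4 lower, and by library totals 1 higher and 2 lower. Their TMM fold changes ran from -2.87 for miR-2478 to 1.53 for miR-2376 (adjusted p = 0.00166 and 0.00088 by edgeR), with a median of -2.51, against -0.56 for the 9 members. The difference between these lists was not tested.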

How the data were processed

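The authors discarded short reads, reads lacking the adapter and reads with undetermined bases, and ran sRNAbench on the rest against bosTau4 and miRBase, with 1 mismatch allowed. The submitters' processing notes name Bowtie 0.12.9. The authors deposited raw read counts per mature miRNA. They also deposited RPMM, a signal scaled separately for the bovine and the human homologue names. Human homologues were put on the bovine scale here. Counts were tested in R 4.3.3 (edgeR 4.0.16, limma 3.58.1), with DESeq2 1.42.0 as an alternative, in a script tested on simulated data. In those data equal numbers of names rose and fell, without the shift between scalings seen here, so they do not bear on that shift. Standard errors were taken as the size of the log2 fold change over the root of F. The cow is a block because both libraries came from 1 animal, and the deviations of same-cow libraries correlated at 0.0508 to 0.234, against -0.174 to 0.106 between cows. Each cow gave 1 library per fraction.

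The members and lists were chosen with earlier results of these data known. The rule named the members tested, those with at least 100 reads, and those detected in all libraries of 1 fraction and none of the other. Members with a call in the unfiltered fit alone, or with reads in 1 fraction only, were named after their values were seen. The RefSeq table (ARS-UCD2.0) gave gene names and neighbours only. The alternatives were other scalings, tools and filters, no block, and each cow left out. Summing members with near-identical sequences was not run, since no sequences were used.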

Additional observations from a re-analysis of the deposited data

Results flagged for a closer look

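In 60 groups of 4 libraries screened for a library far from the other 3 (Dixon's ratio of gap to range), 4 stood out, and chance marks about 1 in 20 groups. Among plasma libraries, miR-2285k took 3.81% of family reads in cow 46, against 5.13% to 5.21% in the others (ratio 0.937). In the blood cells of cow 45, miR-2284aa was high at 2.14 RPMM, against 1.33 to 1.38 (0.944), miR-2285o was low at 1.93 RPMM, against 3.36 to 3.58 (0.865), and miR-2284w took 3.05% of family reads, against 3.80% to 3.95% (0.832).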

How the results depend on the processing

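miR-2285g and miR-2285aa kept their direction and their call in every alternative that tested them, 15 and 14. With library totals, 140 names were called higher in plasma and 52 in blood cells, 7 and 2 of them members, and the signs of miR-2284ab (1.31), miR-2284w (1.11), miR-2284y (1.53), miR-2284z (1.67), miR-2285k (1.10) and miR-2285q (0.69) turned. miR-2284z, near 0, also turned without the filter (0.078), with the family total (0.31) and with TMM set without miR-486 and miR-451 (0.00052), and ranged from -0.10 to 0.16 with a cow left out (0.02 without cow 45, 0.16 without cow 47). miR-2284y turned with the family total (0.17), of which it is itself the largest part. The family total, this TMM setting and the alternatives of the unfiltered fit were chosen after seeing the data. The fit without the replicate block called 1 member higher and 5 lower in plasma, as with it, and changed no member's call. It called 94 and 80 of all 209 names. Without the filter, 178 and 153 of 704 names and 2 and 8 of 48 members were called higher and lower in plasma. With at least 10 reads 132 and 149 of 346 names and 0 and 8 of 18 members were called. At an unadjusted p under 0.05 by edgeR these were 0 and 9 members, not counted over all names. DESeq2 with the main filter called 1 and 5 of 9 members, against 97 and 86 of 209 names. Calls were lost for miR-2284w (-0.48, adjusted p = 0.101 by edgeR) and miR-2285k (-0.49, 0.115) without the filter, for both with the family total (-0.25, 0.148 and -0.26, 0.263), and for miR-2285t with at least 10 reads (0.57, 0.074). With at least 50 RPMM 1 of 7 members was called higher and 3 lower, against 81 and 75 of 184 names. With the family total 1 and 3 of 9 members were, against 101 and 75 of 209 names. Leaving out each cow left 0 to 1 members higher and 3 to 5 lower in plasma by edgeR, with 0 to 1 and 3 to 5 at an unadjusted p under 0.05, against 87 to 93 and 76 to 82 of 209 names by adjusted p. Without miR-2284y the family stood at 1241 RPMM in plasma and 552 in blood cells, and without miR-486 and miR-451 in the total at 3556 and 2422, a ratio of 1.47. Members detected per plasma and blood cell library averaged 15.25 and 19.5, which became 33.5 and 38 with at least 1 read, 10 and 10 with over 10 RPMM, and 11.8 and 10.0 when thinned. Apart from the scaling, whose construction shifts all names alike, the cause of these changes was not tested. Among the 39 members under the filter, miR-2284p, miR-2285r, miR-2284c and miR-2285a lost their calls with 1 or another cow left out. miR-2285b and miR-2284f kept theirs with any cow left out. Whether depth plays a part in this was not tested. Summing members of near-identical sequence was not run.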
